A study of Arabidopsis thaliana with 9 samples.

Results

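Leaves of Arabidopsis thaliana Col-0 treated with compound 6 were compared with leaves given the solvent DMSO, across every transcript cluster that the array annotation pairs with exactly 1 gene. A transcript cluster is a set of probes summarised as 1 value, and 16722 of the 38408 clusters on the array met that condition, covering 16550 genes. The comparison used 6 of the 9 arrays of the study, 3 of leaves with compound 6 and 3 of DMSO control leaves. The other 3 arrays, of leaves with compound 3, entered the same fit and served for a second comparison. Plants were 21 days old and of the same wild-type accession in all groups, and each sample was a pool of 10 to 15 detached leaves. Leaves with compound 6 and leaves with compound 3 lay in MS medium with 10 µM of the compound for 48 h in the dark. DMSO control leaves lay in MS medium with 0.05% DMSO for the same 48 h in the dark. The DMSO content of the media with a compound is not recorded in the sources used here. The labels call both compounds cytokinins and give them code names only.

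Cytokinins are plant hormones that act through membrane histidine kinases and a phosphorelay. The relay activates type-B response regulators, transcription factors whose early targets include the type-A response regulators, which dampen the signal. A detached leaf in the dark senesces: it dismantles its chloroplasts, breaks down protein and lipid, and turns to autophagy and amino acids for energy. Cytokinins are known for delaying that programme in leaves.

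The study has no leaves from the beginning of the 48 h, so rose and fell mean higher or lower than in DMSO control leaves at the end. Replicate numbers in the labels start afresh in each group, and the labels give no order or batch of handling. If the groups were handled separately, both comparisons would include that difference, and this was not tested. In pools of whole leaves, fewer cells of a type cannot be told apart from less RNA per cell. Over transcript clusters of 1 gene the array medians lay between 3.70 and 3.81 on the log2 scale in all 9 arrays. Over all transcript clusters they were less level, at 3.89 to 4.15 with compound 6 and 3.87 to 3.96 with compound 3. Control arrays had 3.71 to 3.83 over all transcript clusters, so every treated array lay above every control array. No 2 arrays held identical values. Rubisco activase RCA (AT2G39730), an abundant mesophyll transcript, stood at 11.01, 10.85 and 11.25 with compound 6, against 9.96, 10.08 and 9.67 in control leaves, while the pollen marker VGD1 averaged 1.68 with compound 6 and 1.83 in control leaves and the meristem marker CLV3 averaged 1.42 and 1.45 in the same groups. These values cannot be compared between genes, and they do not test the tissue. The marker lists were thinly covered, with 1 gene each for mesophyll, guard cell, trichome, root, pollen and meristem and none for epidermis, phloem or xylem. RCA alone of these 6 markers was called.

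Compound 6 moved 1728 transcript clusters past an adjusted p of 0.05 in limma, 10.3% of those tested. Of these 939 rose (5.62% of those tested) and 789 fell (4.72%). A rise of at least 4-fold was seen for 66 of them and a fall of at least 4-fold for 59, and 11 rose and 9 fell at least 8-fold. The balance between rises and falls depended on the scaling: with arrays centred on the median of all their transcript clusters, which moved the median difference to -0.27 from -0.02, 551 rose and 1569 fell, and with quantile normalization applied again 731 rose and 1147 fell at a median difference of -0.14. The groups did not overlap for 24.6% of transcript clusters, with all 3 arrays with compound 6 above the control arrays for 11.9% and below them for 12.7%. Of the 1728 called, 1709 were without overlap. Most of the called genes carry only a locus identifier: 826 of those that rose and 680 of those that fell. Clusters known by locus alone were called up in 5.55% of cases and down in 4.56%, and clusters of genes with a symbol in 6.19% and 5.97%.

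**Figure D1:**
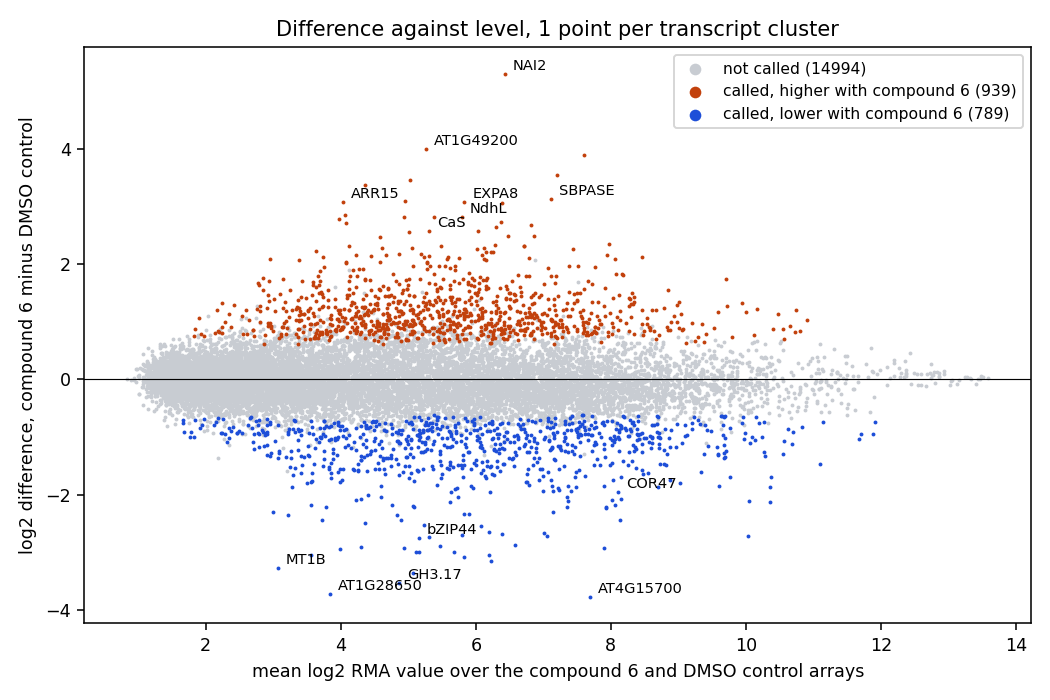
Log2 difference, compound 6 minus DMSO control (vertical axis), against the mean log2 RMA value over the 6 arrays of both groups (horizontal axis), 1 point per transcript cluster of 1 gene (16722). The 939 clusters that rose and the 789 that fell lie mostly above the dimmest part of the range, and NAI2 stands highest at 5.30.

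Calls were rare among dim transcript clusters, so the shares called over all clusters lie below those of the brighter classes. In the lowest of 5 equal level classes, with mean values between 0.93 and 2.09, 0.149% rose and 0.389% fell. In the fourth class, between 4.67 and 6.58, 11.8% rose and 7.45% fell, and in the highest, up to 13.57, 8.31% rose and 8.70% fell. The fold of a gene that is dim in 1 group is approximate, because no background signal was at hand. Genes that rose had a median control value of 4.86, and genes that fell had 6.65. Calls were spread over the nuclear chromosomes, with 4.99% to 6.24% of clusters called up and 4.31% to 5.13% called down on chromosomes 1 to 5. None of the 63 plastid-encoded genes passed in limma, 5 had an unadjusted p under 0.05, and their differences lay between -0.19 and 0.73. These genes sat near the top of the scale, with a median of 12.51 with compound 6 and 12.34 in control leaves.

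Among all genes, NAI2 (AT3G15950), a protein needed to build the endoplasmic reticulum bodies of Brassicaceae, rose most. Its values were 8.92, 8.88 and 9.43 with compound 6, against 4.02, 3.51 and 3.79 in control leaves, a 39.4-fold rise (log2 difference 5.30, SE 0.22, adjusted p = 1.26e-08). The 4 other measured genes of endoplasmic reticulum bodies did not pass: the beta-glucosidases PYK10, BGLU21 and BGLU22 differed by 0.09, -0.40 and -0.50, and the transcription factor NAI1 by -0.07. PYK10 and NAI1 overlapped between groups, as did BGLU21 and BGLU22.

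Of the 15 genes that rose most, 10 are known to the gene tables by their locus alone. AT1G49200 stood at 6.97, 7.28 and 7.53 with compound 6, against 3.76, 2.94 and 3.09 in control leaves (15.9-fold, log2 difference 3.99, SE 0.25, adjusted p = 7.66e-07). AT2G40200 reached 9.33, 9.69 and 9.63 with compound 6, against 5.57, 5.32 and 6.08 (14.8-fold, adjusted p = 7.66e-07). AT5G19190 had 8.78, 8.92 and 9.22 with compound 6, against 5.49, 5.74 and 5.03 in control leaves (11.7-fold). For each of these 3 loci the lowest array with compound 6 lay more than 3 log2 units above the highest control array.

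AT1G09750 (6.75 ± 0.45 with compound 6, against 3.3 ± 0.36 in control leaves) and AT2G15020 (6.04 ± 0.51 with compound 6, against 2.67 ± 0.17 in control leaves) rose 10.9-fold and 10.3-fold (SD, n = 3 each). AT4G34220, AT1G65230, AT2G30540, AT3G16370 and AT5G50915 rose between 7.03-fold and 8.50-fold. AT5G50915 was especially even with compound 6, at 6.31, 6.36 and 6.38, against 3.70, 3.18 and 3.72 in control leaves. None of the 15 lost its call when any 1 of the 6 arrays was left out, or under any of the 3 other scalings.

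**Figure D2:**
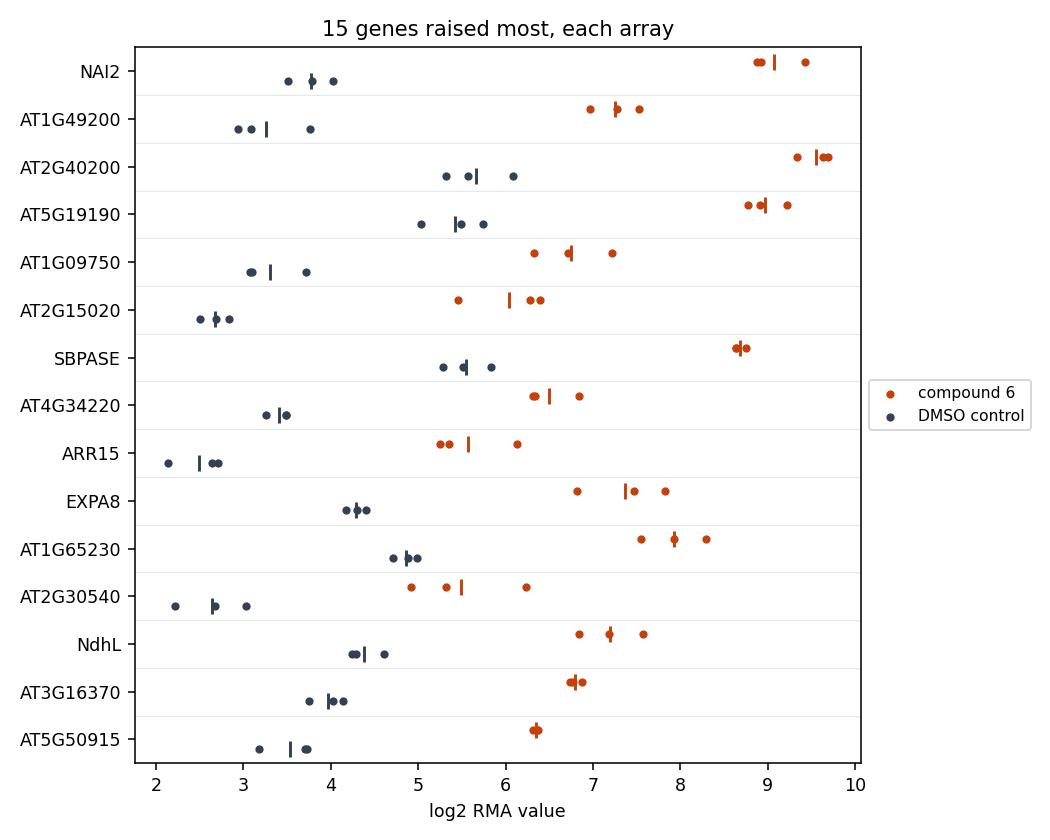
Log2 RMA value (horizontal axis) of each array for the 15 genes that rose most, compound 6 above DMSO control in each row; points are arrays and ticks are group means. In every row the 3 points of compound 6 lie to the right of the 3 control points. Only called genes without overlap between the groups could enter the 15, so the choice of genes set this separation.

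Besides NAI2, the genes with a symbol among the 15 were SBPASE, ARR15, EXPA8 and NdhL. SBPASE (AT3G55800), a bisphosphatase that regenerates the Calvin cycle's acceptor sugar, had 8.64, 8.64 and 8.75 with compound 6, against 5.83, 5.51 and 5.29 in control leaves (8.76-fold, log2 difference 3.13, 95% interval 2.72 to 3.55). ARR15 (AT1G74890), a type-A response regulator, had 6.13, 5.35 and 5.25 with compound 6, against 2.64, 2.71 and 2.13 in control leaves (8.46-fold, adjusted p = 7.72e-06). The second measured type-A regulator, RR16 (AT2G40670), had 8.26, 8.78 and 8.45 with compound 6, against 6.43, 5.98 and 7.16 (3.92-fold, adjusted p = 0.000319). Both regulators, the only 2 measured of 10 listed, therefore rose without overlap between the groups. Over all clusters 5.62% rose, and 11.9% had all 3 arrays with compound 6 above the control arrays. UGT76C2 (AT5G05860), which glucosylates cytokinins on a ring nitrogen, stood at 4.03 ± 0.30 with compound 6, against 2.48 ± 0.21 in control leaves (SD, n = 3 each; adjusted p = 0.000292). The other 2 measured genes of cytokinin metabolism and transport did not pass, with UGT76C1 at -0.01 and UGT73C1 at -0.44. Thus 1 of 3 rose, against 5.62% of all clusters, and the median difference of the 3 was -0.01.

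Of 49 measured nuclear genes for plastid biogenesis and thylakoid assembly, 18 rose, none fell and 31 did not pass. Over all clusters 5.62% rose, and 11.8% in the fourth level class, where the set's median level of 5.08 lies. The median difference of the set was 0.41 against -0.02 over all clusters. It was gathered with earlier results of these data known, so the count describes the set and does not test it. With centring over all transcript clusters 12 of the 18 kept their calls and 1 other member fell, and 11 of the 18 kept them in all 6 fits without 1 array. CaS (AT5G23060), a thylakoid calcium-sensing protein, had 6.48, 6.42 and 6.90 with compound 6, against 4.16, 4.05 and 3.87 in control leaves (5.94-fold, adjusted p = 2.86e-06). HCF101 (AT3G24430), which helps insert iron-sulfur clusters into photosystem I, had 6.15, 6.23 and 6.51 with compound 6, against 4.60, 3.79 and 4.11 (4.37-fold, adjusted p = 3.78e-05). CCB3 (AT5G36120), which acts in haem attachment to cytochrome b6, averaged 6.23 ± 0.52 with compound 6 and 4.31 ± 0.33 in control leaves, and CRR42 (AT5G20935), an accumulation factor of the chloroplast NADH dehydrogenase-like complex, averaged 6.27 ± 0.14 with compound 6 and 4.66 ± 0.21 in control leaves (SD, n = 3 each). These 4 genes showed no overlap between groups. Over all clusters 11.9% had all 3 arrays with compound 6 above the control arrays.

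The other risers of that set span several steps of making a chloroplast. They include the plastid chaperonin subunit Cpn60beta4 (log2 difference 1.55), the light-harvesting-like proteins LIL3:2 (1.5) and LIL3:1 (1.18), the plastid division protein FTSZ2-2 (1.38), the organelle peptide deformylase PDF1B (1.21), the plastid translation factor FUG1 (1.19), the photosystem II assembly factor PAM68 (1.13), the RNA editing factor OTP86 (1.07) and TROL (1.02), which anchors ferredoxin-NADP reductase in the thylakoid. Leaving out 1 array in turn, FUG1 and OTP86 held their calls in 5 of 6 fits and the others just named in 6 of 6. Members with no call included the photosystem II factors LPA1 (0.16) and LPA2 (0.13), the protease subunit CLPP4 (-0.36) and PGRL1B (-0.44), which acts in cyclic electron flow. The members named here beyond CaS, HCF101, CCB3 and CRR42 were picked after their values were seen.

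The chloroplast NADH dehydrogenase-like complex feeds electrons back into the thylakoid chain. All 3 of its measured nuclear-encoded subunits rose, against 5.62% of all clusters. NdhL (AT1G70760) had 6.84, 7.57 and 7.19 with compound 6, against 4.61, 4.24 and 4.28 in control leaves (7.08-fold, adjusted p = 1.78e-05). NdhU (AT5G21430) had 3.73, 4.64 and 5.40 with compound 6, against 3.18, 3.14 and 2.82 (2.91-fold, adjusted p = 0.00586), with a wide spread among treated arrays. NdhN (AT5G58260) had 4.68, 5.10 and 4.78 with compound 6, against 3.39, 3.91 and 3.31 (2.50-fold, adjusted p = 0.00128). None of the 10 measured plastid-encoded subunits passed in limma, although all 10 differences were above 0 (0.05 to 0.39), and their control means were near the top of the scale, between 10.86 and 12.83. The difference between both sets of subunits was not tested.

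Beyond SBPASE, 2 Calvin cycle genes were measured and both rose, against 5.62% of all clusters. PRK (AT1G32060), phosphoribulokinase, averaged 8.01 ± 0.08 with compound 6 and 6.22 ± 0.02 in control leaves (SD, n = 3 each), and RCA differed by 1.13. TRXF2 (AT5G16400), an f-type thioredoxin that activates Calvin cycle enzymes in the light, averaged 6.44 ± 0.33 with compound 6 and 5.05 ± 0.11 in control leaves (2.64-fold, adjusted p = 0.000885). Of 10 measured glutaredoxins and thioredoxins 1 rose, 1 fell and 8 did not pass, against 5.62% and 4.72% of all clusters. Their median difference was -0.14. AT1G74470, geranylgeranyl reductase, which makes the phytol tail of chlorophyll, averaged 9.08 ± 0.17 with compound 6 and 7.26 ± 0.30 in control leaves (3.54-fold, adjusted p = 7.71e-05). Of 6 measured genes of chlorophyll synthesis 2 rose, none fell and 4 did not pass, against the 5.62% of all clusters that rose. Their median difference was 0.42. With centring over all transcript clusters 1 of the 2 calls held and the median was 0.18. Of 28 photosystem and light-harvesting genes 6 rose, none fell and 22 did not pass, against the 5.62% of all clusters that rose, with a median difference of 0.05 that turns to -0.19 with centring over all transcript clusters. The 6 were among the 10 nuclear genes of the family (median difference 0.84), and the 18 plastid-encoded ones, which lie near the top of the scale, did not pass (median 0.02). A separate list of 6 nuclear genes of the photosystems and electron transport shares 5 genes with that family. It held 5 that rose (median 0.90), again against 5.62% of all clusters, 2 of them also with centring over all transcript clusters. Of the 6 calls in the family 2 held under that centring, and none held in all 6 fits without 1 array: 1 gene of the family rose without DMSO control replicate 1, 3 without compound 6 replicate 3 and 4 in each of the other 4 fits. ALDH11A3 (AT2G24270), a cytosolic glyceraldehyde-3-phosphate dehydrogenase that does not phosphorylate, rose 2.50-fold to 10.60 ± 0.26 with compound 6, against 9.28 ± 0.29 in control leaves.

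**Figure D3:**
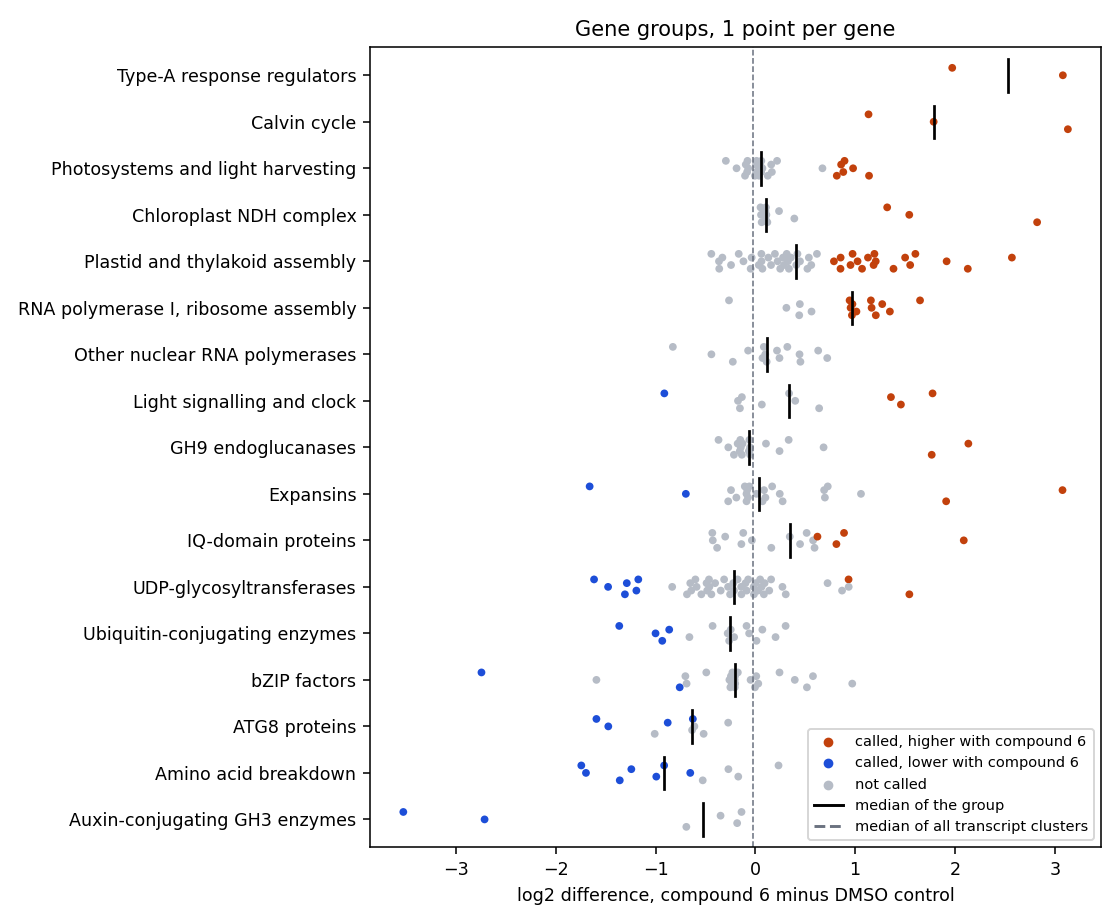
Log2 difference, compound 6 minus DMSO control, for each measured gene of 17 groups; orange points rose, blue points fell, grey points did not pass, black ticks are group medians and the dashed line is the median of all transcript clusters. The sets for plastid assembly and RNA polymerase I reach to the right with 18 and 11 risers and no gene that fell, and amino acid breakdown and ATG8 proteins reach to the left with 7 and 4 that fell and no riser. The groups were chosen with earlier results of these data known, so the counts describe them and do not test them.

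Of 16 measured genes of RNA polymerase I and ribosome assembly, which make ribosomal RNA and build ribosomes, 11 rose, none fell and 5 did not pass. Over all clusters 5.62% rose, and 8.31% in the highest level class, where the median level of 6.68 lies. The median difference was 0.97 against -0.02 over all clusters. This list was likewise gathered with earlier results of these data known, so its count is no test. Centring over all transcript clusters kept 10 of the 11 calls, and 9 held in all 6 fits without 1 array. NRPA1 (AT3G57660), the largest subunit of RNA polymerase I, which transcribes ribosomal DNA, had 7.05, 7.30 and 7.05 with compound 6, against 6.23, 5.57 and 5.78 in control leaves (2.41-fold, adjusted p = 0.00386). NRPA2 (AT1G29940), the second largest, had 8.25, 8.81 and 8.38 with compound 6, against 7.34, 6.61 and 7.44 (2.55-fold, adjusted p = 0.00373). YAO (AT4G05410), a nucleolar protein of rRNA processing, had 4.41, 4.83 and 4.92 with compound 6, against 3.71, 3.25 and 3.59 (2.31-fold, adjusted p = 0.00160).

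REBELOTE (RBL, AT3G55510), which resembles a ribosome assembly factor of yeast, averaged 6.70 ± 0.66 with compound 6 and 5.05 ± 0.25 in control leaves (SD, n = 3 each; adjusted p = 0.00284). IMP4, a part of the complex that processes the small-subunit rRNA, also rose, as did PRH75, a nucleolar RNA helicase whose call held in 1 of 6 fits without 1 array. By contrast none of 15 measured subunits of the other nuclear RNA polymerases passed in limma, and 4 had an unadjusted p under 0.05. Their median difference was 0.11, which turns to -0.13 with centring over all transcript clusters. The largest of these differences were NRPB9A (-0.83, adjusted p = 0.140) and NRPB12 (0.72, adjusted p = 0.0628). Whether the 2 sets differ was not tested.

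Of 11 measured genes of light signalling and the clock 3 rose, 1 fell and 7 did not pass, against 5.62% and 4.72% of all clusters, and the median difference was 0.34. PIF7 (AT5G61270), a phytochrome-interacting factor, had 6.66, 7.41 and 6.75 with compound 6, against 4.69, 4.87 and 5.94 in control leaves (3.42-fold, adjusted p = 0.00212). TZP (AT5G43630), a nuclear protein of phytochrome signalling, averaged 4.86 ± 0.23 with compound 6 and 3.4 ± 0.28 in control leaves (adjusted p = 0.000604). HYH (AT3G17609), the homologue of the photomorphogenesis factor HY5, differed by 1.36 (adjusted p = 0.0135). That call was lost when compound 6 replicate 2 was left out (1.08, adjusted p = 0.0672), likewise for compound 6 replicate 3 (1.26, adjusted p = 0.0577) and DMSO control replicate 1 (1.19, adjusted p = 0.0619), and when every cluster of the array was tested (adjusted p = 0.0531). FHL (AT5G02200), which carries phytochrome A into the nucleus, averaged 4.37 ± 0.24 with compound 6 and 5.28 ± 0.07 in control leaves (adjusted p = 0.0117), and leaving out compound 6 replicate 3 ended the call (-0.78, adjusted p = 0.0606).

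Of 19 measured GH9 endoglucanases, which act on cell wall glucans, 2 rose, against 5.62% of all clusters, and the median difference was -0.07. GH9C2 (AT1G64390) had 6.52, 6.28 and 6.31 with compound 6, against 4.34, 3.74 and 4.63 in control leaves (4.39-fold, adjusted p = 3.84e-05), and GH9B7 (AT1G75680) averaged 6.82 ± 0.17 with compound 6 and 5.06 ± 0.44 in control leaves. Of 24 expansins and expansin-like proteins, which loosen cell walls, 2 rose and 2 fell, shares not far from the 5.62% and 4.72% of all clusters, and the median of 0.04 turns to -0.20 with centring over all transcript clusters. EXPA8 (AT2G40610) had 7.47, 7.82 and 6.81 with compound 6, against 4.3, 4.18 and 4.40 (8.44-fold, adjusted p = 1.78e-05), and EXPA9 (AT5G02260) had 5.61, 5.40 and 4.83, against 3.19, 3.32 and 3.60 (3.76-fold). The expansin-like EXLB1 (AT4G17030) fell to 4.03 ± 0.14 with compound 6, against 5.69 ± 0.16 in control leaves (adjusted p = 8.97e-05). None of 15 xyloglucan and pectin enzymes passed in limma, and 3 had an unadjusted p under 0.05.

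Of 16 measured genes of CLE signalling peptides 1 rose and 1 fell, shares near the 5.62% and 4.72% of all clusters, and the median difference was -0.08. CLE26 (AT1G69970) had 4.85, 5.73 and 4.83 with compound 6, against 3.07, 3.47 and 3.19 in control leaves (3.72-fold higher, adjusted p = 0.000400). CLE44 (AT4G13195), whose peptide holds back xylem differentiation, had 4.2, 5.21 and 4.27 with compound 6, against 6.50, 6.20 and 7.33 (4.34-fold lower, adjusted p = 0.00115). RTFL7, a small peptide gene of the ROTUNDIFOLIA-like family, averaged 5.51 ± 0.56 with compound 6 and 3.37 ± 0.39 in control leaves (adjusted p = 0.000255).

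On the falling side the greatest change was AT4G15700. It had 5.90, 6.44 and 5.09 with compound 6, against 8.78, 9.96 and 10.01 in control leaves (13.6-fold lower, log2 difference -3.77, SE 0.42, adjusted p = 7.00e-05). AT1G28650 had 1.51, 2.13 and 2.29 with compound 6, against 5.08, 5.31 and 6.68 in control leaves (13.1-fold lower, adjusted p = 1.58e-05), near the bottom of the scale after treatment. AT2G03850 had 3.38, 3.46 and 3.35 with compound 6, against 6.92, 6.77 and 6.54 (10.2-fold lower, adjusted p = 5.28e-07). None of these 3 loci has a symbol in the gene tables.

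AT5G02580, AT1G78260, AT1G01453, AT5G50940, AT1G73610, AT2G20030, AT4G22940, AT1G62760 and AT3G15440 fell between 7.56-fold and 8.83-fold. AT1G62760 was the brightest of these in control leaves, at 6.43 ± 0.61 with compound 6, against 9.35 ± 0.71. AT5G52050, named DTX50 among its synonyms and a carrier of the detoxification efflux family, had 3.68, 3.87 and 3.46 with compound 6, against 6.52, 6.77 and 6.66 in control leaves (7.90-fold lower, adjusted p = 1.58e-06). All 15 genes that fell most kept their calls in each of 6 fits without 1 array.

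**Figure D4:**
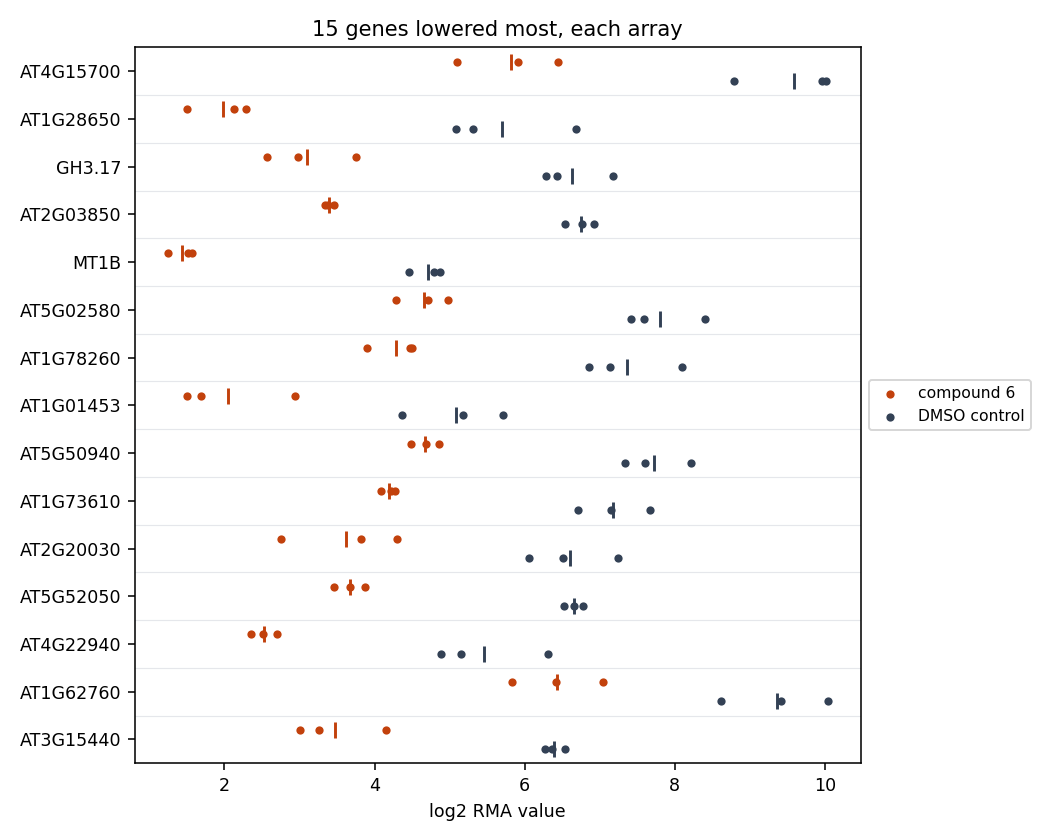
Log2 RMA value (horizontal axis) of each array for the 15 genes that fell most, compound 6 above DMSO control in each row; points are arrays and ticks are group means. In every row the 3 points of compound 6 lie to the left of the 3 control points. Only called genes without overlap between the groups could enter the 15, so the choice of genes set this separation.

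Auxin-conjugating enzymes were among the named genes that fell furthest. GH3.17 (AT1G28130), which joins amino acids to auxin, had 2.57, 3.75 and 2.99 with compound 6, against 6.28, 6.43 and 7.18 in control leaves (11.5-fold lower, adjusted p = 7.01e-06). WES1 (AT4G27260), another such enzyme, had 8.96, 8.44 and 8.60 with compound 6, against 11.15, 11.54 and 11.45 (6.56-fold lower, adjusted p = 2.86e-06). These were 2 of 6 measured GH3 genes, against the 4.72% of all clusters that fell, and the median difference of the 6 was -0.52. The 4 others did not pass, with GH3.3 at -0.69, GH3.1 at -0.35, GH3.9 at -0.18 and GH3.4 at -0.14. The GH3 list was gathered with earlier results of these data known. MT1B (AT5G56795), a metallothionein, had 1.56, 1.25 and 1.51 with compound 6, against 4.45, 4.80 and 4.88 in control leaves (9.63-fold lower, adjusted p = 2.86e-06).

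Of 25 measured bZIP transcription factors 2 fell and 23 did not pass, a share not far from the 4.72% of all clusters that fell, with a median difference of -0.21. bZIP44 (AT1G75390) had 4.08, 3.56 and 3.73 with compound 6, against 6.25, 6.74 and 6.61 in control leaves (6.71-fold lower, adjusted p = 2.98e-06). CHAT (AT3G03480), an acetyltransferase that forms an ester among green leaf volatiles, averaged 3.98 ± 0.14 with compound 6 and 6.50 ± 0.25 in control leaves. The dehydrin COR47 (AT1G20440) averaged 7.14 ± 0.04 with compound 6 and 9.09 ± 0.15 in control leaves, and the chitinase ChiC (AT4G19810) averaged 6.56 ± 0.18 with compound 6 and 8.41 ± 0.06 in control leaves (SD, n = 3 each). Replicates of these 2 genes differed by little beside the gap between groups.

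Of 11 measured genes of amino acid breakdown 7 fell, none rose and 4 did not pass, against the 4.72% of all clusters that fell. In the highest level class, where the median level of these genes (8.67) lies, 8.70% fell. The list was gathered with earlier results of these data known, so its count is no test. Their median difference was -0.91 against -0.02 over all clusters, 3 of the 7 calls held in all 6 fits without 1 array, and all 7 held under the 3 other scalings. The fits without 1 array called 3 (DMSO control replicate 2 left out), 4 (DMSO control replicate 1 or compound 6 replicate 2 left out) or 5 to 6 of them. MCCB (AT4G34030), of leucine breakdown, had 8.55, 7.87 and 7.59 with compound 6, against 10.08, 9.77 and 9.40 in control leaves (3.35-fold lower, adjusted p = 0.000544). AT4G33150, named LKR among its synonyms, the bifunctional enzyme of lysine breakdown, averaged 9.51 ± 0.26 with compound 6 and 11.21 ± 0.21 in control leaves (adjusted p = 0.000249). DELTA-OAT (AT5G46180), ornithine aminotransferase, averaged 9.08 ± 0.33 with compound 6 and 10.32 ± 0.33 in control leaves (adjusted p = 0.00276). These 3 genes were bright in control leaves. The asparaginase ASPGB1 (AT3G16150) averaged 6.19 ± 0.69 with compound 6 and 7.55 ± 0.66 in control leaves (adjusted p = 0.0233), and it lost its call when compound 6 replicate 1 (-0.98, adjusted p = 0.103), DMSO control replicate 2 (-1.40, adjusted p = 0.0540) or DMSO control replicate 3 (-1.01, adjusted p = 0.0915) was left out, or when every cluster of the array was tested (adjusted p = 0.0766).

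All 9 measured ATG8 genes, whose products coat autophagosomes, had a mean below that of control leaves (median difference -0.63). Of these 4 fell, against 4.72% of all clusters and 8.70% in the highest level class, where their median level of 7.61 lies. This list was also gathered with earlier results of these data known, so the count is no test. APG8A (AT4G21980) had 5.63, 5.11 and 5.96 with compound 6, against 6.76, 7.65 and 7.07 in control leaves (3.02-fold lower, adjusted p = 0.00125). ATG8B (AT4G04620) had 6.92, 6.96 and 7.40 with compound 6, against 8.29, 8.65 and 8.78 (2.78-fold lower, adjusted p = 0.000678). These 2 held their calls in all 6 fits without 1 array, ATG8G in 2 of 6 and APG8H in none. Without compound 6 replicate 1, compound 6 replicate 2 or DMSO control replicate 2, 2 ATG8 genes were called. ATG8 genes resemble each other, and how far their probes share signal is not known here.

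Of 16 measured ubiquitin-conjugating enzymes, which hand ubiquitin to target proteins, 4 fell and none rose, against 4.72% of all clusters that fell, with a median difference of -0.25, and 2 were called without compound 6 replicate 1 or without compound 6 replicate 3. UBC32 (AT3G17000) averaged 10.18 ± 0.06 with compound 6 and 11.05 ± 0.14 in control leaves (adjusted p = 0.00728), and UBC36 (AT1G16890) averaged 6.53 ± 0.24 with compound 6 and 7.53 ± 0.30 in control leaves (SD, n = 3 each; adjusted p = 0.00710). UBC29 and UBC19 held their calls in 4 and 1 of 6 fits without 1 array. Of 48 measured UDP-glycosyltransferases, which attach sugars to hormones and other small molecules, 2 rose and 6 fell, against 5.62% and 4.72% of all clusters, with a median difference of -0.22, and centring over all transcript clusters gave 1 and 12. UGT73B2 (AT4G34135), known to act on flavonoids, had 3.76, 4.95 and 3.98 with compound 6, against 5.51, 5.58 and 6.45 in control leaves (3.07-fold lower, adjusted p = 0.00351), and UGT85A2 (AT1G22360) averaged 8.07 ± 0.24 with compound 6 and 9.55 ± 0.35 in control leaves (adjusted p = 0.000576). Family members that share sequence could also share probes.

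The sugar-porter pair SFP1 (AT5G27350) and SFP2 (AT5G27360) moved in opposite directions. SFP1, known to be induced in senescing leaves, had 9.23, 9.10 and 9.23 with compound 6, against 10.28, 10.30 and 10.01 in control leaves (adjusted p = 0.00262). SFP2 had 7.39, 7.74 and 7.25 with compound 6, against 6.25, 6.45 and 6.69 (adjusted p = 0.00751). Neither gene's groups overlapped, which held for 24.6% of all clusters. None of 15 SWEET sugar transporters passed in limma, with 3 at an unadjusted p under 0.05.

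Called genes that lie side by side were looked up among RefSeq protein-coding genes sorted by start position, whatever the distance between them. Genes of other kinds can lie between such neighbours. Direct neighbours called in the same direction formed 38 pairs that rose and 37 that fell, besides 2 runs of 3 genes that rose and 4 runs of 3 that fell. How many such runs the shares of 5.62% and 4.72% called would give by themselves was not computed, so these counts only describe the genes. The run with the greatest change was AT4G15680, AT4G15690 and AT4G15700. AT4G15690 had 3.66, 3.13 and 2.99 with compound 6, against 5.24, 5.52 and 5.24 in control leaves, and AT4G15680 had 2.31, 2.73 and 2.1, against 3.50, 3.04 and 2.96. The log2 differences of the 3 genes were -0.79, -2.07 and -3.77, and the first held its call in 2 of 6 fits without 1 array. In another run AT1G73740, AT1G73750 and AT1G73760 differed by -1.20, -1.86 and -0.76, the last with a call held in 2 of 6 such fits. A rising run held AT4G21870, AT4G21880 and AT4G21890, with 1.68, 1.34 and 0.76. Adjacent copies of a gene may cross-hybridise, and that was not tested.

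The second comparison set compound 6 against compound 3, both at 10 µM and 48 h. In limma 50 of 16722 transcript clusters passed (0.299%), of which 36 were higher with compound 6 (0.215%) and 14 lower (0.0837%), and 1692 had an unadjusted p under 0.05. Leaving out any 1 of the 6 arrays of both groups reduced the count to between 20 (compound 3 replicate 3 left out) and 29 (compound 3 replicate 1 left out). Of the 50, 28 were also called against DMSO control. Of these, 10 rose against control and were higher with compound 6 than with compound 3, 5 rose and were lower, 12 fell and were higher, and 1 fell and was lower. A difference that missed the threshold does not show that the compounds act alike: for NAI2, compound 6 minus compound 3 was -0.73 with a 95% interval of -1.19 to -0.26 (adjusted p = 0.201).

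Several genes rose with compound 6 and did not pass with compound 3, each compound set against the same control arrays. AT3G28270 had 4.23, 4.80 and 4.3 with compound 6, against 2.17, 2.22 and 1.92 with compound 3 (difference 2.34, 95% interval 1.70 to 2.97, adjusted p = 0.00351), and 2.12, 2.62 and 3.50 in control leaves. AT5G21100 had 6.58, 6.19 and 6.04 with compound 6, against 4.53, 4.42 and 4.23 with compound 3 (difference 1.88, adjusted p = 0.00300), and 4.44, 4.12 and 3.74 in control leaves. IQD19 (AT4G14750), a calmodulin-binding protein, had 3.67, 4.36 and 3.97 with compound 6, against 2.35, 2.3 and 2.16 with compound 3 (difference 1.73, adjusted p = 0.00300), and 1.91, 1.86 and 1.96 in control leaves. For all 3 genes the arrays with compound 6 lay above every other array.

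AT1G60060 (difference 1.81, adjusted p = 0.00768) and SFP2 (1.22, adjusted p = 0.0267) had the same order of means with compound 6 highest. The call of AT1G60060 ended without compound 3 replicate 3 (1.63, adjusted p = 0.0542), and that of SFP2 held in 1 of 6 fits without 1 array. Of the 17 measured IQ-domain genes 4 rose against control, or 1 to 2 in the fits without 1 array, against the 5.62% of all clusters that rose, with a median difference of 0.34, and IQD19 alone kept its call in all 6 fits without 1 array and under centring over all transcript clusters. AT5G05365 lay between the other groups, at 3.80, 4.64 and 3.89 with compound 6, against 1.80, 1.98 and 2.21 with compound 3 (difference 2.12, adjusted p = 0.00300), and 5.64, 5.37 and 5.70 in control leaves. AT1G64360 showed the same order of means (difference 1.88, adjusted p = 0.0319), a call that held in none of 6 fits without 1 array. Its fall against control in limma (adjusted p = 0.0475) held in 1 of 6 such fits and ended with a replicate block (adjusted p = 0.0552). Its arrays with compound 6 overlapped those of control leaves.

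ARR15 was lower with compound 6 than with compound 3, whose arrays read 7.26, 7.74 and 7.35 (difference -1.88, 95% interval -2.43 to -1.32, adjusted p = 0.00654), and the call held in all 6 fits. RR16 differed by -0.65 (95% interval -1.23 to -0.07) and did not pass (adjusted p = 0.411). AT5G14160 had 5.05, 5.28 and 4.99 with compound 6, against 6.71, 6.34 and 6.31 with compound 3 (difference -1.35, adjusted p = 0.00735), and 3.62, 3.65 and 3.66 in control leaves. AT4G15680, the first gene of the falling run, read 4.67, 4.69 and 4.46 with compound 3, above all control arrays, and differed between the compounds by -2.23 (adjusted p = 0.00155). EXPA9 (-1.28, adjusted p = 0.0267) and AT3G57460 (-1.36, adjusted p = 0.0194) were also lower with compound 6, with calls that held in 1 and 2 of 6 fits without 1 array.

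**Figure D5:**
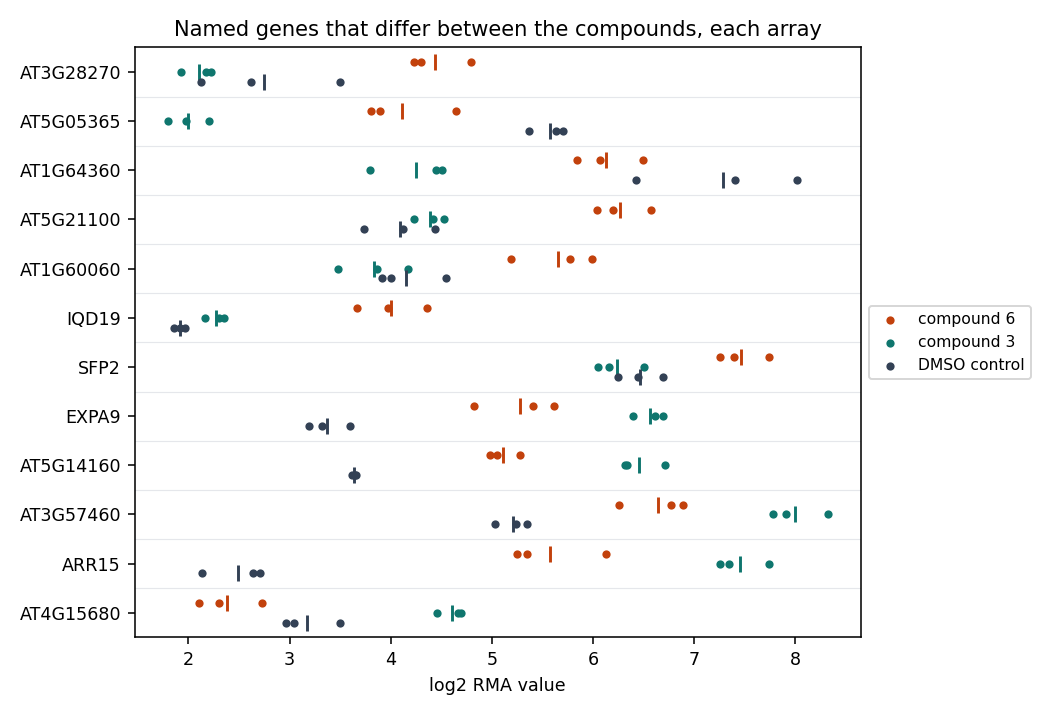
Log2 RMA value (horizontal axis) of each array for the 12 named genes that differ between compound 6 and compound 3, with compound 6, compound 3 and DMSO control from top to bottom in each row; points are arrays and ticks are group means. AT3G28270 stands at the top with a difference of 2.34 and AT4G15680 at the bottom with -2.23.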

How the data were processed

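RNA of 9 leaf samples was hybridised to Affymetrix arrays, 1 array per sample. The deposited values are log2 RMA expression values, 1 per transcript cluster; RMA, oligo and limma are named without versions, per the submitters' processing notes. The base of the logarithm is not stated and was taken as log2 from the range of 0.132 to 13.9, so every fold rests on it. Build and annotation are not given in the sources used here. Genes were named from the array's gene table, updated through RefSeq's TAIR10.1 table, in which 16670 of the 16722 clusters were found. Of the others, 759 clusters have several genes, and 20927 stay unnamed here.

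Group means over all 9 arrays were fitted with limma 3.58.1 (lmFit, eBayes) in R 4.3.3, with 6 residual and 7.89 prior degrees of freedom. Two-sided p-values were adjusted by Benjamini-Hochberg over the 16722 clusters, and a call is an adjusted p under 0.05. An exact permutation test of 3 arrays against 3 cannot give a p under 0.1, so none was used. Replicates are biological per the labels. Arrays have no read depth, and their number limits the precision. On simulated data with 100 genes changed by 1 log2 unit and 100 by 2, the fit recovered 65% and 100% of them. It called 6 unchanged genes, with 16722 genes tested, the changed ones included. The simulated noise was normal and independent, without offsets between arrays, and far fewer genes changed than were called in the data. These rates therefore need not hold for the data.

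The members and gene lists were chosen with earlier results of these data known. Some lists were gathered by role from all measured genes with a name (plastid assembly, RNA polymerases, light signalling, amino acid breakdown, GH3, ATG8 and several families), and 27 list members were left out because the tables gave no such name for the locus. Named genes are the 15 called genes that rose and the 15 that fell most, 10 and 10 with a symbol, up to 4 called members (otherwise 2) of each list, and 5 and 5 between the compounds. The 15 and 15 and the 10 and 10 were taken only from called genes whose groups did not overlap. Neighbour runs and other genes outside that rule were chosen after their values were seen. A gene with several clusters is represented by the brightest. Alternatives were a replicate block, 2 groups only, other scalings, a filter on dim clusters (mean under 4), all clusters tested, a variance trend and leaving out each array.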

Additional observations from a re-analysis of the deposited data

Results flagged for a closer look

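The 12 named genes whose difference between compound 6 and compound 3 passed in limma are given as compound 6 minus compound 3 on the log2 scale, all from 3 arrays a group. Higher with compound 6 were AT3G28270 (2.34), AT5G05365 (2.12), AT1G64360 (1.88346), AT5G21100 (1.88084), AT1G60060 (1.81), IQD19 (1.73) and SFP2 (1.22). Lower were AT4G15680 (-2.23), ARR15 (-1.88), AT3G57460 (-1.36), AT5G14160 (-1.35) and EXPA9 (-1.28).

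A signal outside the comparisons lies in the transcript clusters without a gene name. The first 7083 clusters of the table, none of which is named here, had array medians of 2.70, 3.4 and 2.77 with compound 6 and 2.84, 2.54 and 2.74 with compound 3, against 2.35, 2.3 and 2.44 in control leaves. The mean of the medians was 0.588 higher with compound 6 than in control leaves on the log2 scale, and 0.367 higher without compound 6 replicate 2, which lay farthest out. What these clusters measure was not tested.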

How the results depend on the processing

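Against DMSO control, centring arrays on the median of all their clusters gave 551 higher and 1569 lower, and testing all 38408 clusters gave 3144 calls, 2019 of them higher. The other settings stayed within 1.5 times of 1728, and without 1 array in turn 1227 to 1499 were called, with 650 to 820 higher and 562 to 717 lower. Centring on one-gene clusters, an alternative chosen after seeing the data, gave 857 higher and 872 lower. Of the 1728 calls, 947 held in all 6 fits without 1 array and 46 in none. Between compound 6 and compound 3, leaving out 1 array gave 20 to 29 calls, 13 to 23 higher and 6 to 7 lower. Compound 6 and control arrays of the same replicate number had correlations of deviations of 0.26, -0.37 and -0.22. The highest correlation, 0.51, was between compound 6 replicate 2 and DMSO control replicate 3. Deviations from a mean of 3 arrays depend on each other, so these values do not settle whether samples were paired. With a replicate block 1453 were called against control, 795 higher and 658 lower, and 29 between the compounds, 21 higher and 8 lower. Of 140 named genes called against control, 99 kept the call under every alternative that tested them, and none reversed. Cross-hybridisation and signal over background were not measured.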

Other observations

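The zinc finger repressor STZ (AT1G27730) read 7.84, 7.83 and 7.83 with compound 6, against 8.67, 9.73 and 8.85 in control leaves (log2 difference -1.25, adjusted p = 0.0107). Its mean with compound 3 was 8.87, and compound 6 minus compound 3 was -1.04 (95% interval -1.65 to -0.43), which did not pass (adjusted p = 0.154). The U-box ubiquitin ligase PUB54 (AT1G01680) had wide spreads in both groups, at 9.45, 8.12 and 9.74 with compound 6, against 7.40, 7.92 and 5.70 in control leaves, and its call (adjusted p = 0.0118) ended without compound 6 replicate 3 (1.78, adjusted p = 0.0601) and when every cluster of the array was tested (adjusted p = 0.0570). Its relative PUB43 (AT1G76390) averaged 7.22 ± 0.31 with compound 6 and 8.34 ± 0.20 in control leaves (SD, n = 3 each; adjusted p = 0.00610).

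The type-B response regulator RR18 (AT5G58080) read 4.72, 4.41 and 6.14 with compound 6, against 3.58, 3.84 and 3.37 in control leaves. All treated arrays lay above all control arrays, and the difference of 1.49 did not pass (adjusted p = 0.0599). The tubulin TUB6 (AT5G12250), often used as a reference gene, averaged 7.95 ± 0.24 with compound 6 and 6.84 ± 0.08 in control leaves (adjusted p = 0.00293).

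In 2 large gene families few genes were called. Of 67 AGAMOUS-like MADS-box genes 1 rose and 1 fell, against 5.62% and 4.72% of all clusters. The riser, AGL24, lost its call in limma with centring over all transcript clusters (adjusted p = 0.128). The same held with quantile normalization applied again (adjusted p = 0.115) and in several fits without 1 array. None of 67 low-molecular-weight cysteine-rich genes passed in limma, with 3 at an unadjusted p under 0.05. The median levels of the 2 families were 2.2 and 1.81, in the dim part of the scale where calls were rare. In the level classes that hold these medians 1.02% and 0.149% rose, and 1.61% and 0.389% fell.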
